A study of Mus musculus with 6 samples.

Results

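The genes described here carry glucose into retinal cells, move lactate and pyruvate across cell membranes, and interconvert lactate and pyruvate. They are Slc2a1, Slc16a1, Slc16a3, Slc16a7, Slc16a8, Bsg, Nxnl1, Ldha, Ldhb and the glycolytic enzyme gene Eno1, 10 genes chosen by name. Every probe set that the platform annotation gives to 1 of these genes alone was taken. This gave 17 probe sets for 9 genes, out of 18194 genes with a probe set of their own. No probe set was annotated to Eno1 alone. Probe sets with several gene symbols were not searched, so Eno1 was not analysed here. Of the 17 probe sets, 14 of 8 genes passed the filter on low signal, a geometric mean over the arrays of 54.5 or more, and were tested. The other 3 were the weaker probe sets of Slc16a1 and Slc16a8 and the single one of Slc16a7.

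RNA of whole mouse retina at postnatal day 21 was measured on 6 Affymetrix 3′ expression arrays. In the group labelled knockout, 3 samples came from ERRβ -/- mice of mixed C57Bl/6 x Sv129 background. In the other group, 3 samples came from wildtype C57Bl/6 mice. Each sample pooled 2 retinas of mixed sex. ERRβ, encoded by Esrrb, is an orphan nuclear receptor that the series title links to rod photoreceptor survival. Genotype and strain background differ together, so they cannot be told apart in any difference below.

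The retina is among the most glycolytic of tissues and turns much of its glucose into lactate even when oxygen is present. Glucose reaches photoreceptors from the choroid through the retinal pigment epithelium by way of the facilitative transporter GLUT1, the product of Slc2a1. Lactate leaves and enters cells through proton-coupled monocarboxylate transporters (MCTs), of which several need the chaperone basigin, the product of Bsg, to reach the membrane. Nxnl1 encodes rod-derived cone viability factor, a truncated thioredoxin-like protein released by rods, and a longer thioredoxin-like form. The released form is known to bind basigin-1 on cones, which associates with GLUT1 and increases glucose uptake.

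The deposited values are intensities on a linear scale, with each array scaled as a whole. The trimmed mean signal was 500 on 4 arrays, which are replicates 1 and 2 of each group, and 150 on the remaining 2, which are replicate 3 of each group. These are called the arrays scaled near 500 (2 labelled knockout and 2 wildtype) and the arrays scaled near 150 (1 of each). Signals of the 2 groups are compared only within such a set. Exceptions are percentiles and ratios within an array, and the lens signal of wildtype arrays, which are also compared across the sets. The brightest probe set of Esrrb read 3435 and 4012 in labelled knockout arrays, against 2951 and 2934 in wildtype arrays scaled near 500, and 2397 against 1771 near 150, so it was not lower under the knockout label (0.37 ± 0.082, adjusted p = 0.0529). The sources used here do not say where its probes lie relative to the deleted part, so this probe set checks nothing about the deletion. Of 9 measured rod markers none passed the test in either direction, and the summed rod signal was 239958 and 267113 in labelled knockout arrays against 295237 and 292241 in wildtype arrays scaled near 500, and 43411 against 43833 near 150. Of 10 lens markers, 9 passed as higher, where 1.28% of all genes did. The summed lens signal was 44922 and 39240 in labelled knockout against 2302 and 1891 in wildtype arrays scaled near 500, and 28275 against 4925 near 150. The part of this lens signal in the values below was not tested. Of 8 cone, 10 Müller glia and 5 microglia markers, and of the single red cell marker measured (Alas2), none passed. Summed cone signal was 43021 and 45207 in labelled knockout against 40198 and 41273 in wildtype near 500, and 7116 against 7300 near 150. Summed Müller glia signal was 96336 and 109513 in labelled knockout against 96214 and 97216 in wildtype, and 17173 against 17005 near 150. Microglia markers summed to 2293 and 2288 in labelled knockout against 2155 and 2019 in wildtype, and to 441 against 449 near 150. Alas2 read 35.5 and 81.7 in labelled knockout against 123 and 126 in wildtype, and 39.0 against 130 near 150. In RNA of a whole tissue, fewer cells of a type and less RNA per cell cannot be told apart.

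The promoter of the gene on which the results turn most, Nxnl1, is shown with those of Slc16a1 and Ldha. These are a transporter and an enzyme of lactate with the most matches to a hypoxia response core when both strands are counted. The windows are from RefSeq (GRCm38.p6) and run from 250 bases before to 50 bases after the annotated start. Capitals mark matches on either strand to AAGGTCA, the core element that ERR receptors bind, to TAATCC, a site of the photoreceptor factor CRX, or to ACGTG, the core of hypoxia response elements. In a CACGTG both strands match ACGTG and overlap.
Nxnl1 (chr8:71566600-71566899, minus strand): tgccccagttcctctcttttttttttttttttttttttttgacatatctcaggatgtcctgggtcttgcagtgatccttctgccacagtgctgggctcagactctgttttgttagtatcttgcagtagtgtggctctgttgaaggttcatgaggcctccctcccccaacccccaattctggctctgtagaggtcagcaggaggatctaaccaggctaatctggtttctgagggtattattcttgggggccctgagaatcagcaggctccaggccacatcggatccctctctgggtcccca
Slc16a1 (chr3:104638414-104638713, plus strand): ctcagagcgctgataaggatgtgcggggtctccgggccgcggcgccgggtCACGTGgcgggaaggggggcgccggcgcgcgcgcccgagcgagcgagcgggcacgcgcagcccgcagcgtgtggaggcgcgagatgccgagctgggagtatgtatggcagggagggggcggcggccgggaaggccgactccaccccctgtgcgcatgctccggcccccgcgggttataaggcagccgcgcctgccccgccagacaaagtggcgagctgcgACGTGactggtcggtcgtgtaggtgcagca
Ldha (chr7:46845554-46845853, plus strand): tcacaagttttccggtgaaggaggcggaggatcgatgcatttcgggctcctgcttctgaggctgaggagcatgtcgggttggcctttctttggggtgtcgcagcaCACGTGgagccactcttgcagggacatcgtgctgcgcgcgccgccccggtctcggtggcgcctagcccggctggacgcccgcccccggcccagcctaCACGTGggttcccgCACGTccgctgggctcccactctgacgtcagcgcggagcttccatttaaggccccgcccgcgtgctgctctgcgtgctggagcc

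The Nxnl1 window held none of the 3 motifs. That of Slc16a1 held 3 ACGTG matches and that of Ldha 5, with each CACGTG counted on both strands. The window of Slc16a3, not shown, held 2 matches that do not overlap. The table held 11 windows for 8 of the 10 genes, all but Slc16a7 and Bsg. ACGTG was found in 4 of these 11 windows and in 19.6% of all 32851 windows. AAGGTCA was found in 1 window, of Eno1, and in 4.72% of all windows, and TAATCC in 1, a second window of Ldha, and in 7.06%. A match describes letters only.

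No probe set of the uptake and exchange genes passed the test of labelled knockout against wildtype over all 6 arrays. Log2 differences are labelled knockout minus wildtype, from limma with the set of arrays as a block, with a standard error (SE, n = 3 arrays per group). P-values are two-sided and Benjamini-Hochberg adjusted over the 27022 probe sets kept, with a threshold of 0.05. Of the 14 tested probe sets, 0 passed, where 2.25% of all tested probe sets did (609, with 1.04% as higher and 1.22% as lower, and 200 with the replicate number as a block), and 5 had an unadjusted p under 0.05, a share that was 20.4% over all probe sets. Their median difference was 0.02, against -0.02 over all probe sets. Of the 14 differences, 12 lay within 0.5 of 0, with Nxnl1 at -0.93 and Slc16a8 at 1.00 outside. In the arrays scaled near 500 the 2 groups did not overlap for 10 of the 14 probe sets, 7 lower and 3 higher in labelled knockout arrays, and 58.7% of all tested probe sets showed such a separation (31.7% as lower). A filter on mean signal can let a probe set in through the group where it is high, so these counts describe the tested probe sets only.

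**Figure D1:**
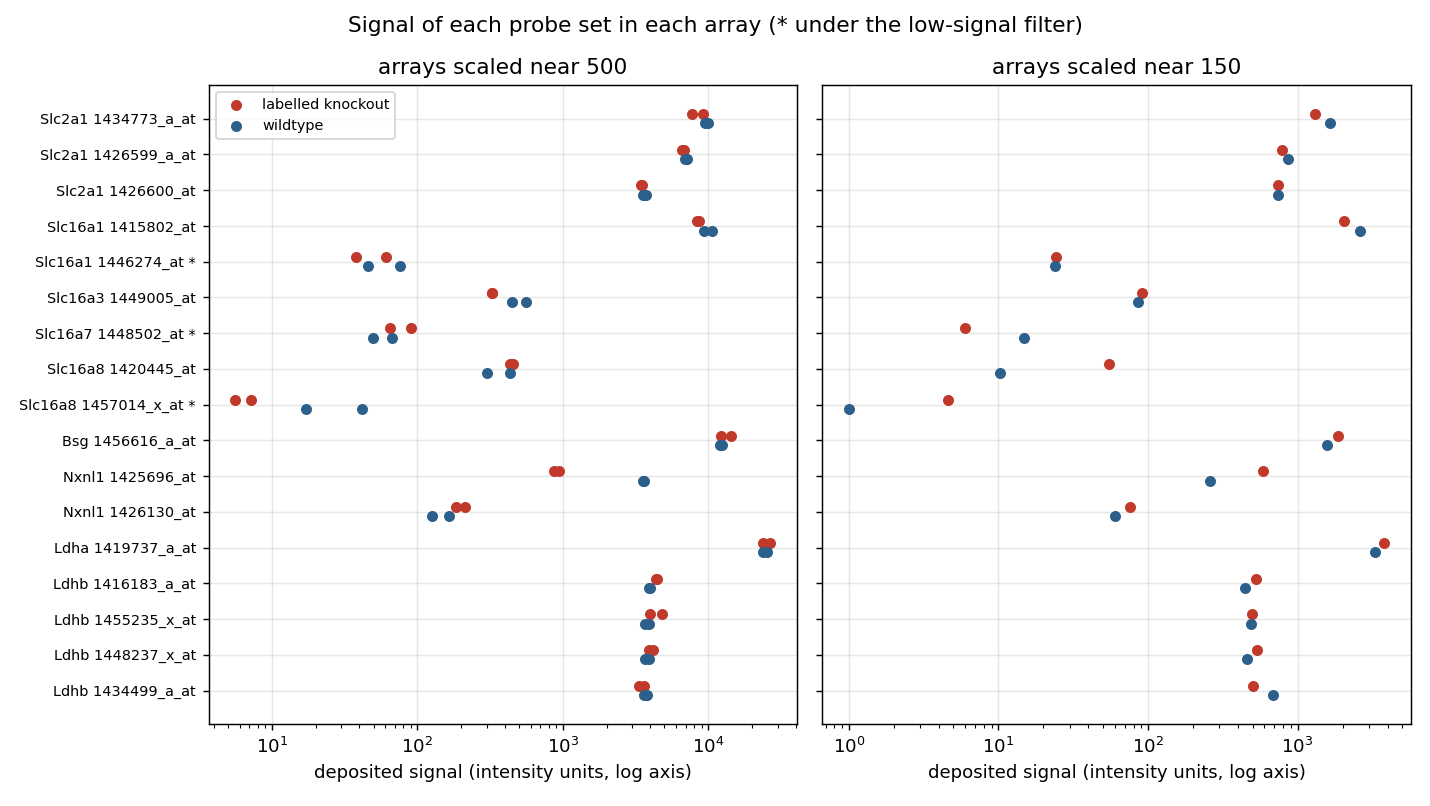
Deposited signal (intensity units, log axis) of the 17 probe sets in each array, with labelled knockout arrays in red above wildtype arrays in blue. The left panel holds the 4 arrays scaled near 500 and the right panel the 2 scaled near 150. The brighter Nxnl1 probe set is lower in labelled knockout arrays on the left (941 and 873 against 3602 and 3566) and higher on the right (589 against 260).

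Nxnl1 had the largest difference of the 14 probe sets in the arrays scaled near 500, and the opposite direction in those near 150. Its brighter probe set read 941 and 873 in labelled knockout arrays, against 3602 and 3566 in wildtype arrays with the higher scale. On the arrays with the lower scale it read 589 in labelled knockout, against 260 in wildtype. So the groups did not overlap in the larger set, a separation that 31.7% of all tested probe sets showed as lower. There the signal was 3.95-fold lower in labelled knockout (a log2 difference of -1.98). In the smaller set, the single labelled knockout array was 2.26-fold higher than its wildtype array (1.18). Over all 6 arrays the difference was -0.93 ± 0.49 and did not pass (adjusted p = 0.324 in limma).

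The difference between the 2 sets was itself tested, as an interaction of group and set in limma. It was 3.16 ± 0.15 on the log2 scale for the brighter probe set (adjusted p = 5.23e-05) and ranked 36 by size among 27022 probe sets. With 1 array of each group near 150, that set adds no spread of its own, so the SE and p of every such interaction rest on the 4 arrays near 500 and on the assumption that the other arrays vary alike. Of the 14 probe sets only this one passed the interaction test, which 1.19% of all tested probe sets did, and 3 had an unadjusted p under 0.05, against 15.7% of all. Opposite signs alone were common, at 45.4% of all tested probe sets and 3 of these 14. A decrease of 1 or more on the log2 scale in the arrays near 500 together with an increase of 1 or more near 150 was seen in 23 probe sets, or 0.0851%, and the reverse in 0.0296%. In the arrays scaled near 500 taken alone, the brighter Nxnl1 probe set passed as lower (adjusted p = 2.33e-07 in limma), as did 13.6% of all probe sets in either direction. Leaving out replicate 3 of either group gives the same comparison again (-1.98, adjusted p = 9.3e-07 and 6.09e-07). Leaving out any other array gave -0.66 to -0.60 over the remaining arrays (adjusted p 0.63 to 0.688).

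The place of a signal among all probe sets of its own array does not depend on a scale factor. It can still differ between the sets for other reasons. The brightest Ldhb probe set stood at 96.3 to 96.7 near 500, and at 91.5 in labelled knockout and 89.3 in wildtype near 150. By this percentile the brighter Nxnl1 probe set stood at 83.1 and 82.1 in labelled knockout arrays scaled near 500 and at 92.7 in that scaled near 150. In wildtype arrays it stood at 96.0 and 95.9 near 500 and at 81.6 near 150. In these percentiles, which are not free of the set of arrays, labelled knockout replicates 1 and 2 and wildtype replicate 3 formed a lower trio. The other arrays formed a higher one. Wildtype replicate 3 also stood apart in the 3′ to 5′ signal ratio of control probe sets, a sign of RNA quality. The Actb ratio was 1.82, 1.66 and 1.67 in labelled knockout replicates 1, 2 and 3, against 1.83, 1.89 and 2.32 in wildtype. The Gapdh ratio was 0.731, 0.719 and 0.731 in labelled knockout, against 0.727, 0.712 and 0.779 in wildtype. The part of RNA quality in the Nxnl1 values was not tested. All 10 lens markers were higher in labelled knockout in both sets, against 31% of all genes. The summed lens signal was 4925 in wildtype replicate 3, although scaled near 150, against 2302 and 1891 in wildtype replicates 1 and 2 near 500. The part of lens signal in the Nxnl1 values was not tested.

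A second probe set of Nxnl1 gave a weak signal and did not share this pattern. It read 212 and 183 in labelled knockout arrays, against 125 and 165 in wildtype arrays near 500, and 76.0 against 60.2 near 150. It was higher in labelled knockout in both sets, without overlap near 500, as for 58.7% of all tested probe sets in either direction. The difference of 0.42 ± 0.22 did not pass (adjusted p = 0.319). Since the probe sets disagree in direction in the larger set, Nxnl1 as a gene is called neither lower nor higher. Which of the short and long transcripts each reads was not analysed here. Nxnl2, the related gene for a second cone viability factor, had a difference of -0.02 ± 0.072 (adjusted p = 0.92), with -0.02 in the arrays near 500 and -0.01 in those near 150.

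The 5 nearest tested genes on either side of Nxnl1 on chromosome 8, a set chosen after the Nxnl1 values were seen, had none that passed. Of these 10, 4 were lower near 500 and higher near 150 and 2 the reverse, where 43.4% of all genes had opposite signs. The 4 were Dda1 (-0.11 and 0.10), Mvb12a (-0.02 and 0.60), Ano8 (-0.85 and 0.34) and Slc27a1, a fatty acid transporter gene (-0.23 and 0.74). The 2 with the reverse signs were Plvap (0.62 and -0.13) and Niban3 (0.14 and -0.10). Unc13a had -1.09 and -0.20 (adjusted p = 0.079).

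**Figure D2:**
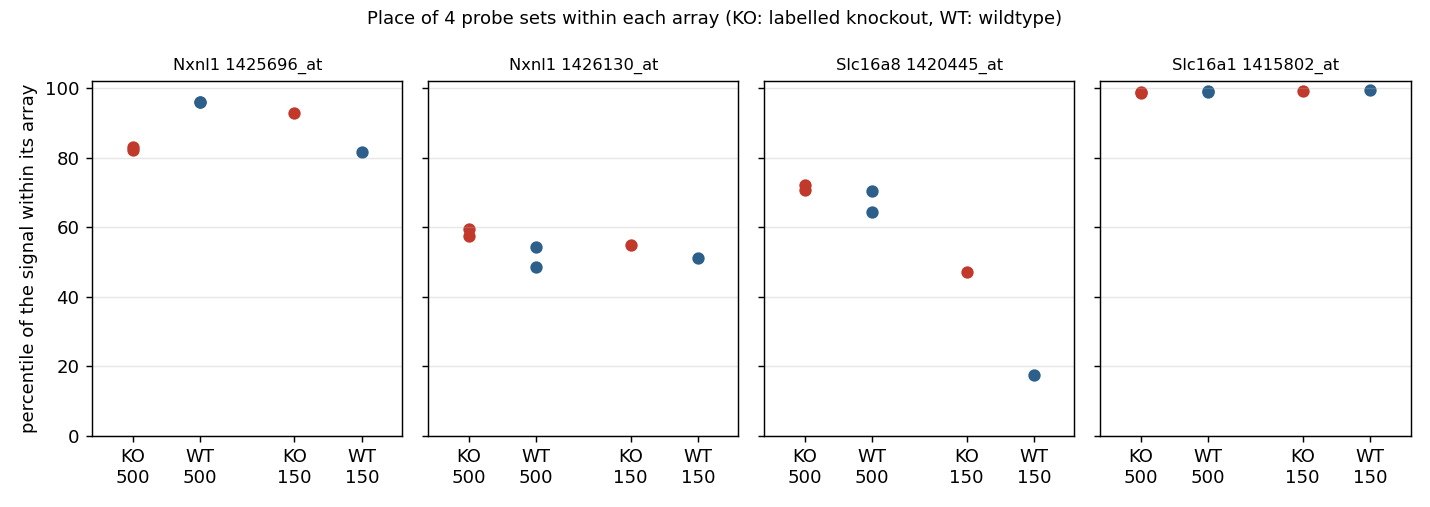
Percentile of the signal within its own array (0 to 100) for both probe sets of Nxnl1, the brighter one of Slc16a8 and that of Slc16a1, by group and by the scale of the array (500 or 150); each point is 1 array. The brighter Nxnl1 probe set lies between 81.6 and 83.1 in labelled knockout near 500 and wildtype near 150, and between 92.7 and 96.0 in the other arrays, while Slc16a1 lies between 98.6 and 99.4 throughout.

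**Figure D3:**
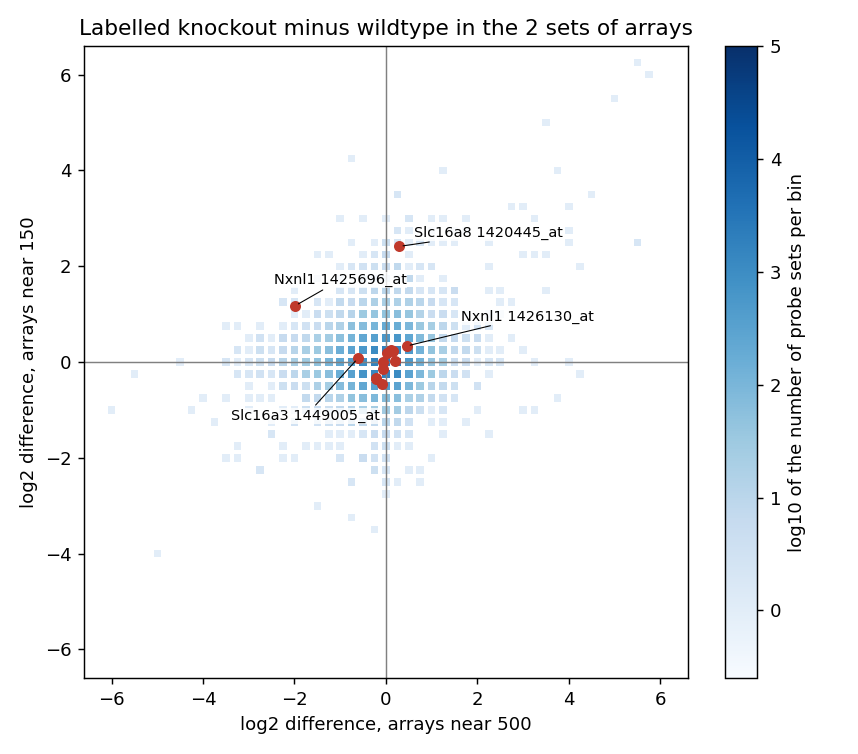
Log2 difference of labelled knockout minus wildtype in the arrays scaled near 500 (horizontal) and near 150 (vertical) for all 27022 tested probe sets, as blue squares by number per bin on a log10 colour scale, and for the 14 probe sets described here, as red points. The brighter Nxnl1 probe set lies at -1.98 and 1.18 and Slc16a8 at 0.30 and 2.42.

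Slc2a1, the gene of the glucose transporter GLUT1, was slightly lower in labelled knockout arrays for its brightest probe set and did not pass. That probe set read 7760 and 9232 in labelled knockout against 9534 and 10028 in wildtype arrays scaled near 500, and 1317 against 1661 near 150. Labelled knockout was below wildtype in both sets. Near 500 there was no overlap, and 31.7% of all tested probe sets were lower in this way. The difference was -0.25 ± 0.084 over all arrays (95% interval -0.44 to -0.06 before adjustment, adjusted p = 0.145). The other probe sets gave -0.09 ± 0.069 (adjusted p = 0.475) and -0.04 ± 0.073 (adjusted p = 0.79). The last read 739 in labelled knockout against 737 in wildtype near 150. The 3 differences thus lay between -0.25 and -0.04. All 3 probe sets stood between the 94.4 and 99.0 percentiles of every array.

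Slc16a1 encodes MCT1, which carries lactate on pigment epithelium, photoreceptors and Müller glia. Its bright probe set read 8628 and 8412 in labelled knockout against 9333 and 10562 in wildtype arrays scaled near 500, and 2046 against 2616 near 150. It was below wildtype in both sets, without overlap near 500, as were 31.7% of all tested probe sets there. The difference of -0.27 ± 0.076 (95% interval -0.44 to -0.09 before adjustment) did not pass (adjusted p = 0.104). The second was under the filter at 37.9 and 60.9 in labelled knockout against 75.7 and 46.2 in wildtype near 500, where the groups overlap, and 24.2 against 23.8 near 150.

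Slc16a3 encodes MCT4, the lactate exporter of strongly glycolytic cells. It read 324 and 328 in labelled knockout against 561 and 445 in wildtype arrays near 500, and 90.7 against 86.0 near 150. The groups were apart in the larger set, with a log2 difference of -0.61, or 1.53-fold lower, and nearly level in the smaller one at 0.08. Of all tested probe sets, 31.7% were lower without overlap near 500. Over all arrays it was -0.38 ± 0.19 and did not pass (adjusted p = 0.281). In the arrays near 500 alone it passed as lower (adjusted p = 0.0355 in limma), as did 13.6% of all probe sets in either direction. Leaving out replicate 3 of labelled knockout or of wildtype gives that comparison again (adjusted p = 0.0435 and 0.043), and leaving out any other array gave -0.41 to -0.22 (adjusted p 0.478 to 0.643). The difference between the sets was not past the test (0.69 ± 0.31, adjusted p = 0.324).

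Slc16a8 encodes MCT3, which in the eye is the lactate transporter of the basal membrane of the retinal pigment epithelium. Its brighter probe set read 433 and 458 in labelled knockout against 434 and 303 in wildtype arrays scaled near 500, where the groups overlap. Near 150 it read 54.6 in labelled knockout against 10.2 in wildtype, a 5.34-fold higher signal, with the wildtype array, the one with the highest Actb and Gapdh ratios, at the 17.4 percentile of its signals. The difference of 1.00 ± 0.38 did not pass (adjusted p = 0.184), and neither did the difference between the sets (2.12 ± 0.43, adjusted p = 0.0543). With 16 added to every signal the group difference was 0.67 (adjusted p = 0.172), so its size depends on the constant added. The second probe set was under the filter and gave 5.61 and 7.15 in labelled knockout against 41.7 and 17.1 in wildtype near 500, and 4.598 against 1.004 near 150, at or below the 25.6 percentile of each array.

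Of 9 measured markers of the pigment epithelium, 4 passed as higher in labelled knockout and none as lower, with a median difference of 0.56. Of all genes, 1.28% passed as higher and 1.48% as lower. The 4 were the pigment cell genes Tyrp1 (0.77), Dct (0.62), Pmel (1.05) and Mlana (1.19), while Rpe65, the isomerase gene that defines this epithelium, had 0.52 (adjusted p = 0.107). Of the 9, 8 were higher in both sets of arrays, against 31% of all genes, and Lrat differed by -0.30 near 500 and 1.70 near 150. The summed signal of the 9 was 38796 and 46008 in labelled knockout against 33321 and 34041 in wildtype arrays scaled near 500, and 1739 against 1023 near 150. Their part in the Slc16a8 values was not tested.

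Slc16a7, the gene of the high-affinity transporter MCT2, was measured by 1 weak probe set that was under the filter. It read 90.7 and 64.7 in labelled knockout against 49.96 and 67.2 in wildtype arrays scaled near 500, with overlap, and 5.99 against 14.8 near 150. In a fit with no filter its difference was -0.17 (adjusted p = 0.933), that of the weak Slc16a1 probe set -0.19 (adjusted p = 0.905) and that of the weak Slc16a8 probe set -0.65 (adjusted p = 0.842).

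Bsg, the gene of the chaperone and receptor basigin, was close to level. It read 12238 and 14364 in labelled knockout against 12483 and 12038 in wildtype arrays scaled near 500, with overlap, and 1858 against 1571 near 150. The difference was 0.16 ± 0.081 (95% interval -0.03 to 0.34 before adjustment, adjusted p = 0.315). Its probe set stood between the 98.2 and 99.4 percentiles of every array. As for isoforms, whether it separates the retina-specific basigin-1 from the common form was not analysed here.

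**Figure D4:**
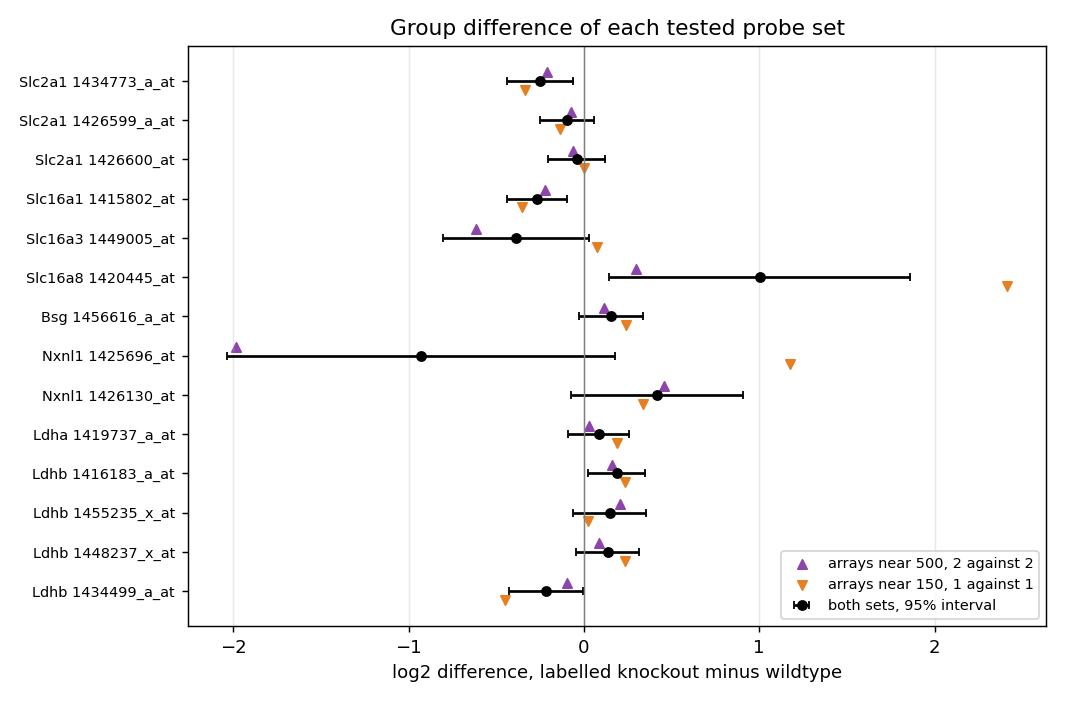
Log2 difference (labelled knockout minus wildtype) of the 14 tested probe sets: black points with 95% intervals from limma over both sets of arrays, upward triangles for the arrays scaled near 500 and downward triangles for those near 150. Most intervals reach or nearly reach 0, and the triangles stand far apart for the brighter Nxnl1 probe set and Slc16a8.

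Lactate dehydrogenase is a tetramer of A and B subunits, and the A subunit, from Ldha, prevails where pyruvate is turned to lactate. Ldha stood between the 99.7 and 99.9 percentiles of every array. It read 23694 and 26521 in labelled knockout against 25334 and 23771 in wildtype arrays scaled near 500, with overlap, and 3775 against 3310 near 150. The difference was 0.08 ± 0.077 (95% interval -0.09 to 0.26 before adjustment, adjusted p = 0.584).

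Ldhb, the gene of the B subunit, had 4 tested probe sets that did not agree in direction. The brightest read 4415 and 4381 in labelled knockout against 3971 and 3888 in wildtype arrays scaled near 500, and 524 against 445 near 150. It was higher in both sets (0.19 ± 0.073, adjusted p = 0.192). Near 500 there was no overlap, as for 58.7% of all tested probe sets in either direction. Of the others, 0.15 ± 0.093 and 0.14 ± 0.079 were seen in the next ones. The fourth read 3334 and 3587 in labelled knockout against 3779 and 3615 in wildtype near 500, and 503 against 688 near 150, lower in both sets (-0.21 ± 0.093, adjusted p = 0.235). So for probe sets of 1 gene the differences ran between -0.21 and 0.19, and Ldhb is called neither higher nor lower.

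A ratio of Ldha to Ldhb within an array is free of the scale of the array. The log2 ratio of the brightest probe sets was 2.42, 2.60 and 2.85 in labelled knockout replicates 1, 2 and 3, against 2.67, 2.61 and 2.89 in wildtype. Over both sets together the groups overlap, and the mean difference of -0.10 was below the spread within either group (SD 0.21 and 0.15, n = 3 each). The exact two-sided permutation test gave p = 0.4, and it cannot go below 0.1 with these arrays. The SDs and the permutation span both sets of arrays, so they include the shift between the sets. Within each set the labelled knockout ratios lay below the wildtype ratios, without overlap near 500 and with 1 array of each group near 150. Within same-numbered pairs the ratio was lower in labelled knockout in 3 of 3, by -0.25, -0.01 and -0.05 (exact sign-flip permutation test p = 0.25, the smallest that 3 pairs allow). The data do not show that replicates 1 and 2 are paired by number. The difference was -0.13 in the arrays near 500 and -0.05 in those near 150. With the mean over all tested probe sets of each gene the difference was 0.02 (exact permutation p = 0.9). The ratio compares changes only, since levels of different probe sets cannot be set against each other.

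Around these genes, 65 tested genes of 7 related lists held 3 that passed (4.62%), against 2.75% of all 12536 genes (1.28% higher and 1.48% lower), each taken by its brightest kept probe set. All 3 were lower in labelled knockout. Slc16a6, which encodes MCT7, a carrier of ketone bodies in zebrafish liver, read 1007 and 865 in labelled knockout against 1880 and 1888 in wildtype arrays scaled near 500, and 144 against 167 near 150. Its log2 difference was -0.75 ± 0.16 (adjusted p = 0.0477), lower in both sets. The 7 tested transporters of that list had a median of 0.06. With the replicate number as a block it did not pass (adjusted p = 0.0999), nor without any 1 of replicates 1 and 2 of either group (adjusted p 0.176 to 0.252).

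Of 15 tested enzymes of glycolysis and lactate other than Ldha and Ldhb, 2 fell, none rose and 13 did not pass. Hk2, a hexokinase that commits glucose to the pathway once it has entered, read 4133 and 4128 in labelled knockout against 9128 and 8939 in wildtype arrays scaled near 500, and 1405 against 2756 near 150. Its log2 difference was -1.08 ± 0.071 (adjusted p = 0.000103), and it was lower in both sets by a like amount (-1.13 and -0.97). Pfkp, a phosphofructokinase gene, read 3862 and 4555 in labelled knockout against 7849 and 7461 in wildtype arrays near 500, and 1555 against 1810 near 150. It differed by -0.65 ± 0.13 (adjusted p = 0.0365, and adjusted p = 0.0833 with the replicate number as a block), and without any 1 of replicates 1 and 2 of either group it did not pass (adjusted p 0.142 to 0.226). The median of the list was -0.14, with -0.17 near 500 and 0.06 near 150, against 0.02 over all genes, and 5 of 15 members were lower in both sets, against 25.5% of all genes. The 3 calls stand beside 0 calls in the genes of uptake and lactate exchange, and whether these groups of genes differ was not tested.

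In the other lists no gene passed. Of 8 tested glucose transporters the largest differences were those of Slc5a2, the sodium-coupled transporter SGLT2 (0.84 ± 0.20, adjusted p = 0.0596), which read 305 and 406 in labelled knockout against 163 and 200 in wildtype arrays near 500, and 110 against 72.1 near 150, and of Slc2a4 (-0.35 ± 0.40). Slc2a3, the neuronal transporter GLUT3, had -0.19 ± 0.097 (adjusted p = 0.31). Of 7 transporter partners and relatives of Nxnl1, Cd44, a surface glycoprotein of Müller glia, had 0.50 ± 0.14 (adjusted p = 0.0921) and Arrdc4 0.38 ± 0.31. The alternative chaperone genes of MCTs, Emb and Nptn, had 0.17 and 0.05. Of 12 genes of pyruvate entry into mitochondria, Pdp2, a phosphatase that activates pyruvate dehydrogenase, had -0.61 ± 0.21 (adjusted p = 0.153) and the kinase gene Pdk3 0.42 ± 0.13 (adjusted p = 0.126).

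Of 8 shuttle genes that carry cytosolic reducing equivalents, Gpd1 had 0.36 ± 0.32 and Slc25a11 0.24 ± 0.084 (adjusted p = 0.152). Hypoxia induces several glycolytic genes, and of 8 tested hypoxia-induced genes P4ha1, a collagen prolyl hydroxylase gene, had -0.43 ± 0.13 (adjusted p = 0.112) and Egln3 -0.30 ± 0.47. The median of that list was -0.21, and 5 of 8 were lower in both sets, against 25.5% of all genes, as a description only. Of endothelial markers, which sit in the vessels where Slc2a1 is also high, none of 9 passed, and their summed signal was 5108 and 5087 in labelled knockout against 4953 and 3967 in wildtype arrays near 500, and 1201 against 1214 near 150.

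**Figure D5:**
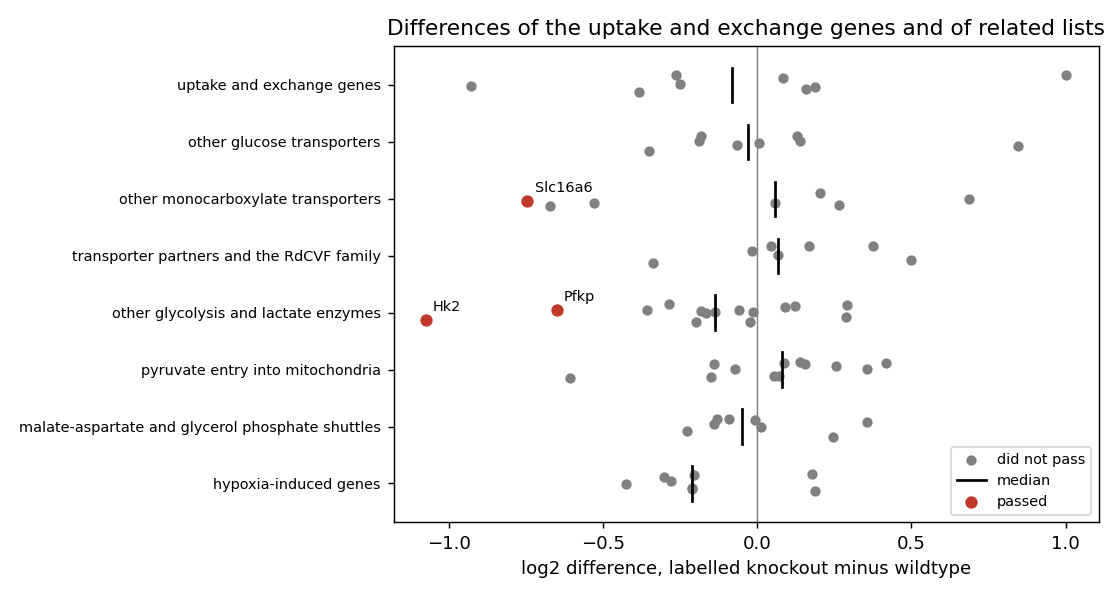
Log2 difference (labelled knockout minus wildtype) of each tested gene of the uptake and exchange genes and of 7 related lists; each point is 1 gene by its brightest kept probe set, black bars are medians, and red points passed (adjusted p under 0.05). Hk2, Pfkp and Slc16a6 are the red points, all left of 0. Points are spread vertically within a list only to keep them apart.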

How the data were processed

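Intensities of 45101 probe sets on 6 arrays were deposited by the authors on a linear scale, made with GCOS 1.4 and MAS5 per the submitters' processing notes, which give no role or order. Leaving out 64 control probe sets left 45037. Signals were taken to log2 with no further normalization, and 27022 probe sets whose mean was at or above the 40th percentile were kept. Groups and replicate numbers came from the titles, which do not state the pooling. R 4.3.3 and limma 3.58.1 (trended eBayes, two-sided tests) compared the groups with the set of arrays (scaled near 500 or 150) as a block. Benjamini-Hochberg adjustment ran over all kept probe sets at 0.05. The fit was tested on simulated data of the 27022 probe sets and found 77% of changes of 1 and 92% of changes of 2 on the log2 scale, with 12 false among all 181 calls (6.63%). The simulation used independent normal noise with the fit's own spread, and each change was the same in both sets of arrays. These shares therefore need not hold for the real arrays.

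Names came from the platform annotation, in which 34945 probe sets have 1 symbol, 932 several and 9160 none. All probe sets annotated to 1 of the 10 genes alone are named. On the other lists genes that passed are named, and otherwise the 2 with the largest difference. Slc2a3, Nxnl2, Emb and Nptn, and the neighbours of Nxnl1, were added after their values were seen. The genes, lists and tests were chosen with earlier results of these data known. Of 83 entries on the 7 related lists, 79 had a probe set annotated to them alone and 65 were kept. Deviations from group means of same-numbered samples correlated at 0.57, 0.67 and 0.843, and replicates 1 and 2 crossed gave 0.627 and 0.607. The numbers were taken to pair samples (every correlation over 0.1). These deviations keep the difference between the sets of arrays, so the correlations cannot show whether the numbers pair samples. The replicate block and the same-numbered pairs are thus an assumption for replicates 1 and 2. The labels do not state that the pools of a group are of different animals, and the p-values then cover only sample-to-sample spread, which may be technical. Arrays carry no depth, and their number limits the precision.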

Additional observations from a re-analysis of the deposited data

Results flagged for a closer look

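The difference between labelled knockout and wildtype for the brighter Nxnl1 probe set was not the same in the 2 sets of arrays. Its log2 value was -1.98 on the arrays with the higher scale and 1.18 on those with the lower scale, a difference of 3.16 between the sets (limma interaction, adjusted p = 5.23e-05). With 16 added to every signal the difference was 3.09 and still passed (adjusted p = 2.44e-05). The set scaled near 150 holds 1 array of each group, so its own difference has no replicate check, and the p-value uses the spread of the arrays near 500 alone. Its wildtype array had the highest Actb 3′ to 5′ ratio of the 6 (2.32, against 1.66 to 1.89 in the others), and the part of RNA quality was not tested.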

How the results depend on the processing

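No difference of the 14 tested probe sets changed sign under any alternative, and none passed over all 6 arrays. The count of these probe sets that passed was 0 in the other alternatives and 2 (the brighter one of Nxnl1, and Slc16a3) in the arrays scaled near 500 alone, and 0 to 2 when 1 array was left out at a time, with 2 without replicate 3 of either group, which is the comparison near 500 again. Over all probe sets 609 passed. The count was 0 with no block for the set of arrays (118 at an unadjusted p under 0.05), 200 with a replicate block, 3 with array medians at 0 and no block, 405 with no filter, 955 with a filter at the 60th percentile, 19 with eBayes without trend, 3687 in the arrays near 500 alone, and 77 to 3710 with 1 array left out. Of the related lists 3 genes passed, against 0 with no block (0 at an unadjusted p under 0.05), 1 with a replicate block, 0 with array medians at 0 (3 unadjusted), 1 with no filter, 5 with the filter at the 60th percentile, 0 without trend (12 unadjusted), 13 in the arrays near 500 alone, 6 with the mean over a gene's kept probe sets, and 1 to 14 with 1 array left out. Slc16a6 passed in 6 of 15 such settings (adjusted p 0.00014 to 1.00), Pfkp in 6 and Hk2 in 12. The difference of Ldha minus Ldhb turned to 0.020 with the mean over probe sets and ran from -0.22 to -0.0036 with 1 array left out. With a replicate block, added after seeing the data, it was -0.10 (exact p = 0.25). The replicate block changed no call among the 14 probe sets. Leaving out an array or adding a block leaves fewer residual degrees of freedom, and the causes of the changed counts were not tested.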

Other observations

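Of the 23 probe sets that were lower by 1 or more on the log2 scale in labelled knockout arrays near 500 and higher by 1 or more near 150, 17 had a gene symbol, and 4 passed the interaction test, whose spread comes from the arrays near 500. Besides Nxnl1 these included Tmem18 (-2.37 and 1.37, adjusted p = 0.00112) and Heatr5a (-2.11 and 1.13, adjusted p = 0.0469), both on chromosome 12, and an unnamed probe set, all chosen after their values were seen. Ywhaz, a 14-3-3 protein gene, showed the opposite switch in 1 probe set, with 1.30 near 500 and -1.28 near 150 (adjusted p = 0.00014).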
